A study of Mus musculus with 20 samples.

Results

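Ceramide and sphingosine are the central intermediates of sphingolipid metabolism, and the 10 enzymes described here make, spend or interconvert them. They are the ceramidases Acer2, Acer3 and Asah1, the acid sphingomyelinase Smpd1, the dihydroceramide desaturase Degs1, the glucosylceramide synthase Ugcg, the sphingosine kinases Sphk1 and Sphk2, the sphingosine-1-phosphate phosphatase Sgpp1 and the sphingosine-1-phosphate lyase Sgpl1. They were chosen by name, and each was read from the brightest of the probe sets that the platform annotation gives to that symbol alone. Acer2 was read from both of its probe sets, so the 10 genes stand for 11 probe sets. They are 10 of 18704 genes with such a probe set, and all 10 were among the 14129 genes bright enough to be tested. The set was assembled because Acer2 had stood out after 1 day and after 4 days of celastrol in these arrays. Every Acer2 comparison that uses the arrays of those times is therefore given as a description, with no test.

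The samples were hypothalami of male C57BL/6J mice with diet-induced obesity, and all groups shared strain, sex and diet. Per the labels, the animals started a diet with 45% fat at 4 weeks of age and ate it for 16 weeks. They then received intraperitoneal injections of celastrol, a plant triterpenoid, or of the solvent dimethyl sulfoxide (DMSO) as the control. The labels state 25 µl of DMSO per day in both arms, and a volume of 100 µl for celastrol. For each of the times 6 h, 1 day and 4 days the DMSO group held 3 arrays, and those with celastrol held 4, 4 and 3, in the same order of times. The labels give the celastrol dose, 250 µg/kg, beside the 6 h time and none beside the later times. No untreated and no lean animals were among the arrays used here. Arrays of a group are labelled as biological replicates, without a statement on whether 1 array is 1 mouse. Values are log2 intensities, so a difference of 1 is a change of 2-fold, and the levels of different probe sets cannot be set against each other.

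The tissue label was checked against genes that mark hypothalamic neurons, of which 11 of the 12 listed were tested. The melanin-concentrating hormone precursor Pmch had a mean level of 12.94, the orexin precursor Hcrt 12.61 and oxytocin Oxt 11.81. Further markers read 11.39 (Trh), 11.37 (Avp), 10.55 (Npy), 9.68 (Nkx2-1), 9.55 (Sim1), 8.84 (Pomc) and 8.63 (Nr5a1). Corticotropin-releasing hormone, Crh, had a mean level of 7.21, close to the dim limit of 7.04, and Agrp was not analysed here. On the leading component of the residuals, which held 25.0% of their variance, replicate 3 of DMSO at 6 h (score 11.4) and replicate 3 of DMSO at 1 day (9.61) lay apart from all the others (-6.13 to 5.32). The differences at 6 h and 1 day that this changed most are also given without those arrays.

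Ceramide is built from dihydroceramide by a desaturase or released from sphingomyelin by a sphingomyelinase. A ceramidase cleaves it into a fatty acid and sphingosine, and a kinase turns sphingosine into sphingosine-1-phosphate, a lipid that acts through its own family of receptors. A phosphatase takes sphingosine-1-phosphate back to sphingosine, while a lyase degrades it for good. Brain tissue also uses ceramide as the base of gangliosides and of the galactolipids of myelin.

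Acer2, the alkaline ceramidase of the Golgi apparatus, lies on the plus strand of chromosome 4 in the GRCm38.p6 assembly, at chr4:86874348-86932524. Its promoter is shown because Acer2 is the member whose level differed most between the groups. The RefSeq promoter table holds the 184 bases just before the first annotated base, chr4:86874164-86874347 on the plus strand, and the capitals mark GC boxes.

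Acer2 promoter: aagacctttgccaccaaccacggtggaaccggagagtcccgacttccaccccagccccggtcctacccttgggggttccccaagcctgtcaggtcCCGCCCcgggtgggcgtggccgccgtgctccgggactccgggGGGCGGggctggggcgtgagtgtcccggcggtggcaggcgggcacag

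The GC box GGGCGG, searched on both strands, occurred 2 times in this window, and 21.7% of 32851 mouse promoter windows of that length held it at least once. G and C made up 73.4% of the window, against a median of 51.1% over the same windows. The glucocorticoid receptor half-site AGAACA, held by 12.3% of windows, was not among its letters on either strand. ACGTG, a form of the hypoxia response core RCGTG (R is A or G), was held by 11.7% and was not found either. The form GCGTG was not counted over the windows, though its letters stand in the window printed above. These letter matches describe the window only.

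At 6 h the DMSO arrays read 8.92, 9.27 and 9.05 for the brightest Acer2 probe set (10505779), and the celastrol arrays read 9.20, 9.14, 9.52 and 8.95. These groups overlapped, with means of 9.08 ± 0.18 (SD, n = 3) and 9.20 ± 0.23 (SD, n = 4). The difference at 6 h was 0.12 ± 0.11 (SE), with a 95% interval from -0.12 to 0.36, and limma gave an adjusted p of 0.791, where the threshold for a call was 0.05. It was 0.015 without celastrol replicate 3 and 0.22 without DMSO replicate 2. An early difference at 6 h was therefore not shown, and the interval leaves room for one of up to 1.28-fold.

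At 1 day the DMSO arrays read 8.50, 8.63 and 8.65 and the celastrol arrays read 9.37, 9.52, 9.44 and 9.56. Every celastrol array lay above every DMSO array. The difference was 0.88 ± 0.11 (SE), a level 1.84-fold higher with celastrol (95% interval 1.56 to 2.16), and it was 0.90 without the arrays that lay apart. By the size of its rise, Acer2 was in place 9 of the 14129 genes.

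At 4 days the DMSO arrays read 8.53, 8.43 and 8.57 and the celastrol arrays read 8.92, 9.28 and 9.37. The groups again did not overlap, and celastrol replicate 1 was the lowest of its group. The difference was 0.68 ± 0.12 (SE), or 1.60-fold (95% interval 1.34 to 1.91), and Acer2 was again in place 9 by size. Leaving out 1 array at a time moved it between 0.59 and 0.81.

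**Figure D1:**
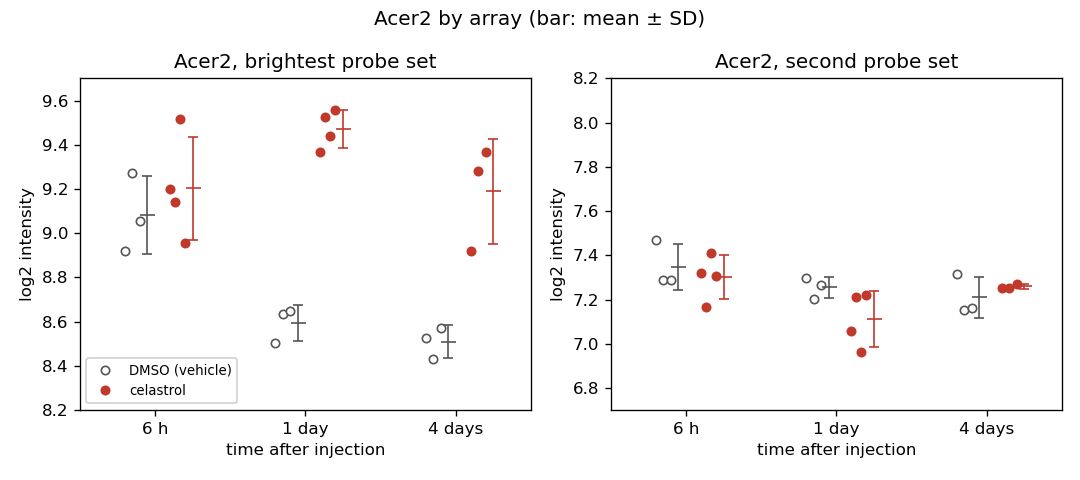
Log2 intensity of the brightest Acer2 probe set and of its second probe set in each of the 20 arrays (points), with group means and SD, for DMSO and celastrol at 6 h, 1 day and 4 days. In the brightest probe set the DMSO arrays at 1 day and 4 days lie between 8.43 and 8.65, below all celastrol arrays (8.92 to 9.56), while the second probe set stays between 6.96 and 7.47.

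The order of the 6 group means, from low to high, was DMSO at 4 days (8.51 ± 0.073, SD, n = 3), DMSO at 1 day (8.60 ± 0.081, n = 3), DMSO at 6 h (9.08), celastrol at 4 days (9.19 ± 0.24, n = 3), celastrol at 6 h (9.20) and celastrol at 1 day (9.47 ± 0.085, n = 4). Thus the celastrol arrays at 1 day stood highest, but celastrol at 4 days lay at the level of both 6 h groups. Neighbours in this order overlapped in their arrays, except DMSO at 1 day and DMSO at 6 h. Celastrol at 1 day exceeded celastrol at 6 h by 0.27 ± 0.10 (SE), with ranges that overlapped between 9.37 and 9.52.

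The later contrasts thus set celastrol against DMSO groups that lay below DMSO at 6 h. With no untreated arrays, which of these DMSO levels is usual cannot be told. Within the DMSO arm, Acer2 was lower at 1 day than at 6 h by -0.49 ± 0.12 (SE). It was lower at 4 days than at 6 h by -0.57 ± 0.12. The arrays did not overlap in either comparison, and without the arrays that lay apart the differences were -0.53 and -0.59. In the celastrol arm the level at 4 days minus 6 h was -0.013 ± 0.11 (SE).

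The celastrol difference at 1 day exceeded that at 6 h by 0.76 ± 0.16 (SE), and the difference at 4 days exceeded that at 6 h by 0.56 ± 0.17. These values use the contrasts that singled Acer2 out, so they too are a description. Both shared the 6 h arrays.

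The second Acer2 probe set (10505788) did not follow the brightest one. The platform annotation ties the brightest to 6 transcript records, 3 of them RefSeq transcripts, and the second to 1 record that is no RefSeq transcript. Its level stayed near the dim limit in all 20 arrays, between 6.96 and 7.47. At 1 day its DMSO arrays read 7.30, 7.20 and 7.27 and its celastrol arrays 7.06, 7.21, 6.96 and 7.22, which overlapped. Its celastrol differences were -0.048 ± 0.068 (SE) at 6 h, -0.14 ± 0.068 at 1 day and 0.050 ± 0.073 at 4 days. The mean of both probe sets differed by 0.37 at 1 day and by 0.36 at 4 days, so the size given for Acer2 rests on which probe set is read.

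Several other gene lists also differed between the arms at 1 day, some of them again at 4 days, and their part in the Acer2 values was not tested. Of 10 listed glucocorticoid-induced genes 9 were tested, and all 9 were higher with celastrol at 1 day (median difference 0.68, 8 called) and at 4 days (median 0.61, 1 called, Sgk1). Over all genes tested, 0.425% and 0.0637% were called at these times, 46.2% and 45.6% were lower, and the medians were 0.0063 and 0.0075. The mean level of the 9 genes per array was 9.76 to 9.92 with DMSO and 10.45 to 10.63 with celastrol at 1 day, and 9.79 to 10.02 against 10.14 to 10.71 at 4 days. As with Acer2, the DMSO arrays of this list stood higher at 6 h, at 10.16 to 10.55, close to celastrol at 6 h (10.35 to 10.50).

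Among cell type markers, 8 of 10 tested oligodendrocyte genes were lower with celastrol at 1 day (median -0.14, 2 called) and 9 of 10 at 4 days (median -0.20, 2 called). Their mean per array was 10.95 to 11.08 with DMSO and 10.76 to 10.91 with celastrol at 1 day, and 11.01 to 11.09 against 10.77 to 10.97 at 4 days. Over all genes tested, 46.2% were lower at 1 day and 45.6% at 4 days, and 0.425% and 0.0637% were called. The mean of 8 astrocyte genes at 1 day was 11.56 to 11.64 with DMSO and 11.53 to 11.55 with celastrol, and that of 5 ependyma and tanycyte genes was 8.14 to 8.27 against 8.31 to 8.46. At 4 days both means overlapped, at 11.53 to 11.56 against 11.48 to 11.56 and at 8.18 to 8.32 against 8.17 to 8.30. With celastrol, 7 of 8 endothelium genes were lower at 4 days, and all 3 tested pituitary genes at 1 day and 4 days. The means of these 2 lists overlapped between the arms at those times. In bulk tissue, fewer cells of a type and less RNA per cell cannot be told apart.

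The genes whose level ran closest to Acer2 over the 20 arrays were Tgm2 (Pearson r = 0.954), Ddit4 (0.942), Srarp (0.923), Slc2a1 (0.919) and Osmr (0.919). Ddit4 is also on the glucocorticoid-induced list. After each group's mean was subtracted, the closest were Sh2b2 (0.828), Fas (0.814), Tgm2 (0.801), Foxo3 (0.795) and Zfp275 (0.795), so only Tgm2 was in both lists of 5. These correlations share the arrays and their normalization and are a description. Among the other 9 enzymes the correlation with Acer2 ran from -0.125 for Asah1 to 0.375 for Degs1.

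None of the other 9 enzymes passed the threshold for celastrol against DMSO at any of the 3 times. At 6 h, limma called 0 of the 10 members, where 0% of all 14129 genes were called. The unadjusted p was under 0.05 for 1 of the 10, Sgpl1, against 7.55% of all genes. At 1 day the 1 member called was Acer2 (0.425% of all genes called), and at 4 days it was again Acer2 alone (0.0637%). The unadjusted p was under 0.05 for no other member at these times, against 8.19% and 6.53% of all genes. Without the arrays that lay apart it was 0 members at 6 h (3.69% of all genes) and 2 at 1 day, Acer2 and Acer3 (15.3%). Groups did not overlap for 0 of the 10 at 6 h (6.35% of all genes) and for 1 at 1 day, Acer2 (7.81%). The call at 4 days was lost without the arrays that lay apart, and in 13 of the 20 fits that left out 1 array. Acer2 was chosen for these contrasts, so nothing is read from its count.

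The intervals give a range for each of the other 9, gene by gene, in the fit of all arrays. Their 95% intervals lay between -0.26 and 0.25 at 6 h, between -0.20 and 0.24 at 1 day, and between -0.28 and 0.21 at 4 days. At 1 day the intervals of that fit reached to a level 1.18-fold higher or 1.15-fold lower with celastrol, and other settings moved them. The median difference of these 9 enzymes was -0.039, 0.0050 and 0.0097 at the 3 times, and that of all genes tested was -0.015, 0.0063 and 0.0075. The lowest adjusted p among the 9 in limma was 0.658 at 6 h, 0.826 at 1 day and 0.891 at 4 days.

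**Figure D2:**
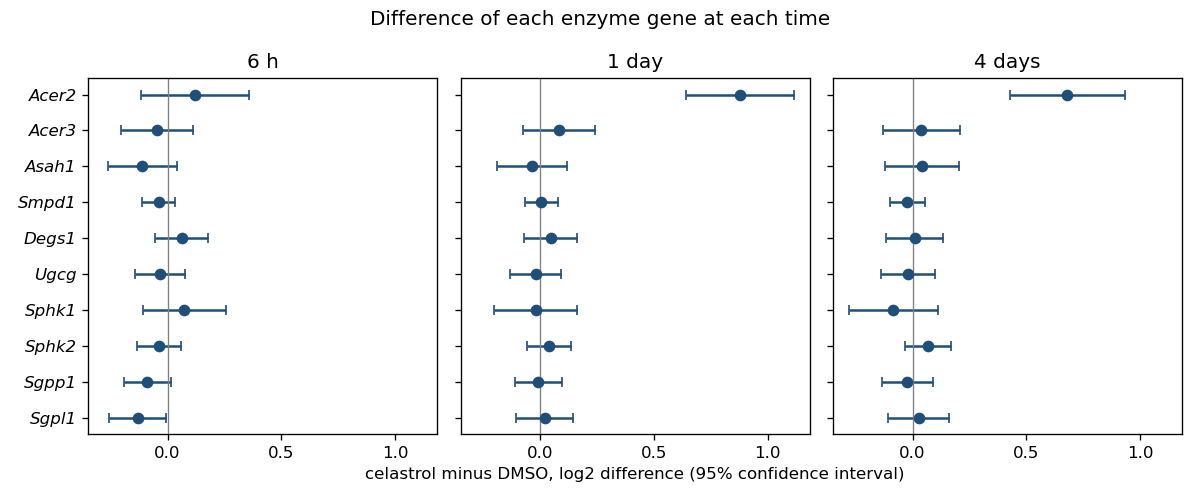
Log2 difference of celastrol minus DMSO for the brightest probe set of each enzyme at 6 h, 1 day and 4 days (points), with 95% intervals from limma as bars. The brightest Acer2 probe set lies at 0.88 at 1 day and 0.68 at 4 days, and the differences of the other 9 enzymes lie between -0.13 and 0.083.

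Acer3, the alkaline ceramidase that favours unsaturated ceramides (7:98213808-98321208, all positions in GRCm38.p6), did not share the pattern of Acer2. At 1 day its DMSO arrays read 8.65, 8.74 and 8.88 and its celastrol arrays 8.96, 8.89, 8.84 and 8.66. The ranges overlapped, with a difference of 0.083 ± 0.076 (SE), or 0.15 ± 0.064 (limma, adjusted p = 0.286) without the arrays that lay apart. At 6 h the difference was -0.046, and it turned to 0.060 without DMSO replicate 3, so it had no settled direction. At 4 days it was 0.038.

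Asah1, the acid ceramidase of the lysosome (8:41340646-41397644), had nearly the same level in both groups at 1 day. The DMSO arrays read 11.22, 11.27 and 11.31, and the celastrol arrays read 11.23, 11.25, 11.23 and 11.21. Its difference was -0.036 ± 0.073 (SE) there, -0.11 at 6 h and 0.043 at 4 days. At 6 h the 3 DMSO arrays were themselves widely spread, from 11.04 to 11.42 in replicate 3, an array that lay apart, and without it the difference was -0.016.

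Smpd1 (7:105554360-105558389), which releases ceramide from sphingomyelin in the lysosome, had celastrol differences of -0.039, 0.0050 and -0.023, each with an SE of 0.035 to 0.037. Degs1 (1:182275964-182282854), which inserts the double bond that turns dihydroceramide into ceramide, differed by 0.062, 0.047 and 0.0097, or by 0.11 at 6 h and 0.077 at 1 day without the arrays that lay apart. Ugcg (4:59189507-59222833), which adds glucose to ceramide and so opens the path to gangliosides, differed by -0.033, -0.020 and -0.018, and by -0.0074 at 6 h without them.

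Of the kinases, Sphk1 (11:116530836-116536675) differed by 0.073 at 6 h, -0.019 at 1 day and -0.084 at 4 days. Its arrays varied widely within a group, from 7.72 to 8.09 with DMSO at 1 day, and without replicate 3 of that group the difference at 1 day was -0.12. Sphk2 (7:45709463-45718002), the kinase that also works in the nucleus, read 9.24, 9.18 and 9.23 with DMSO at 4 days and 9.30, 9.28 and 9.28 with celastrol. These groups did not overlap, but the difference was only 0.067 ± 0.049 (SE; limma, adjusted p = 0.891). At 4 days 14.4% of all genes had groups that did not overlap, and 2 of the 10 members did, Sphk2 and Acer2.

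Sgpp1 (12:75714248-75735729), which returns sphingosine-1-phosphate to sphingosine, differed by -0.089, -0.0073 and -0.024. At 6 h it was -0.013 without DMSO replicate 3. Sgpl1 (10:61098642-61147684), the lyase that removes it, read 9.61, 9.60 and 9.77 with DMSO at 6 h and 9.48, 9.62, 9.50 and 9.51 with celastrol. Its difference at 6 h was -0.13 ± 0.059 (SE; limma, adjusted p = 0.658), and it was -0.076 without DMSO replicate 3. At 1 day and 4 days it was 0.020 and 0.027.

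Some of these enzymes had larger differences between times than between treatments, though no member passed the threshold. In the DMSO arm, limma called 0 of the 10 members for 1 day minus 6 h (0.0991% of all genes called), 0 for 4 days minus 6 h (0.0283%) and 0 for 4 days minus 1 day (0%). The unadjusted p was under 0.05 for 4, 4 and 1 of the 10, against 12.5%, 10.6% and 7.37% of all genes. Without the arrays that lay apart these counts were 3, 2 and 2 (10.2%, 10.2% and 12.2% of all genes). Leaving out DMSO 6 h replicate 3 alone, the first pair of counts was 2 and 2 (11% and 9.38% of all genes). Acer2 was among the members counted in both, so the counts with all arrays rest in part on that array. With all arrays, for 1 day minus 6 h these 4 were Acer2, Smpd1, Degs1 and Sgpl1, and for 4 days minus 6 h they were Acer2, Smpd1, Degs1 and Ugcg. Nothing is read from the place of Acer2 in these counts. All of these differences were negative, and 6.67% and 5.78% of all genes had an unadjusted p under 0.05 with a lower level at 1 day and at 4 days than at 6 h. The 4 thalamus markers, genes of a neighbouring brain region, were higher with DMSO at 6 h than later. Their mean per array was 10.13 to 10.76 with DMSO at 6 h, 9.87 to 10.06 at 1 day and 9.95 to 9.99 at 4 days, and their part in the values of the enzymes was not tested.

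Smpd1 read 12.44, 12.46 and 12.51 with DMSO at 6 h, 12.34, 12.36 and 12.35 at 1 day, and 12.39, 12.33 and 12.38 at 4 days. All 6 later DMSO arrays lay below the 3 early ones. The differences from 6 h were -0.12 ± 0.037 (SE; limma, adjusted p = 0.176) and -0.10 ± 0.037 (adjusted p = 0.323), or -0.10 and -0.084 without the arrays that lay apart.

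Degs1 read 11.54, 11.51 and 11.66 with DMSO at 6 h, 11.36, 11.42 and 11.48 at 1 day, and 11.48, 11.39 and 11.34 at 4 days. Again no later DMSO array reached the early ones. The differences were -0.15 ± 0.059 (SE; limma, adjusted p = 0.293) and -0.17 ± 0.059 (adjusted p = 0.314), or -0.14 and -0.12 without the arrays that lay apart.

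Ugcg was late in this respect. Its DMSO arrays read 10.68, 10.64 and 10.74 at 6 h, 10.66, 10.63 and 10.63 at 1 day, and 10.55, 10.51 and 10.43 at 4 days. The level at 4 days lay below both earlier times, by -0.19 ± 0.056 (SE; limma, adjusted p = 0.231) against 6 h and by -0.14 (adjusted p = 0.593) against 1 day.

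The celastrol arm is made of other arrays, and it was compared between times after the DMSO values had been seen. limma called 0 of the 10 members for 1 day minus 6 h (0.134% of all genes called), 0 for 4 days minus 6 h (0.892%) and 0 for 4 days minus 1 day (0.0425%). The unadjusted p was under 0.05 for 4, 4 and 3 members, against 17.2%, 20.3% and 12.1% of all genes, and the third count was 5 without DMSO 6 h replicate 3 (13.3% of all genes). Degs1 read 11.60, 11.66, 11.71 and 11.56 at 6 h, 11.57, 11.47, 11.48 and 11.35 at 1 day, and 11.37, 11.41 and 11.46 at 4 days. Its arrays at 4 days all lay below those at 6 h, by -0.22 ± 0.055 (SE; limma, adjusted p = 0.0584). Without the DMSO arrays that lay apart, the same comparison gave an adjusted p of 0.0339 in limma and so passed. That setting was not planned, those arrays are not part of this comparison, and the difference stayed at -0.22. The share of all genes with an unadjusted p under 0.05 was 23.7% there, and the share called is not given.

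Ugcg with celastrol read 10.63, 10.60, 10.77 and 10.62 at 6 h and 10.55, 10.43 and 10.46 at 4 days, a difference of -0.18 ± 0.053 (SE; limma, adjusted p = 0.0882). Smpd1 read 12.45, 12.40, 12.44 and 12.43 at 6 h and 12.36, 12.36 and 12.31 at 4 days, a difference of -0.087 ± 0.035 (adjusted p = 0.170). Thus Degs1, Ugcg and Smpd1 were lower at 4 days than at 6 h in both arms, with arrays that did not overlap, and none passed the threshold in either. Lower arrays without overlap at 4 days were found for 7.45% of all genes with DMSO, where 4 of the 10 members had them with Acer2 included, and for 7.21% with celastrol, where 3 did. Sphk2 went the other way with celastrol, and was higher at 4 days than at 6 h by 0.13 ± 0.046 (SE; limma, adjusted p = 0.133). Its arrays did not overlap there. Higher arrays without overlap were found for 14.4% of all genes in that comparison, and for 1 of the 10 members. Acer2 had lower levels at both later times than at 6 h in the DMSO arm alone. The sources used here give no day or hour of tissue collection, so time after the first injection, number of injections and collection cannot be told apart.

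**Figure D3:**
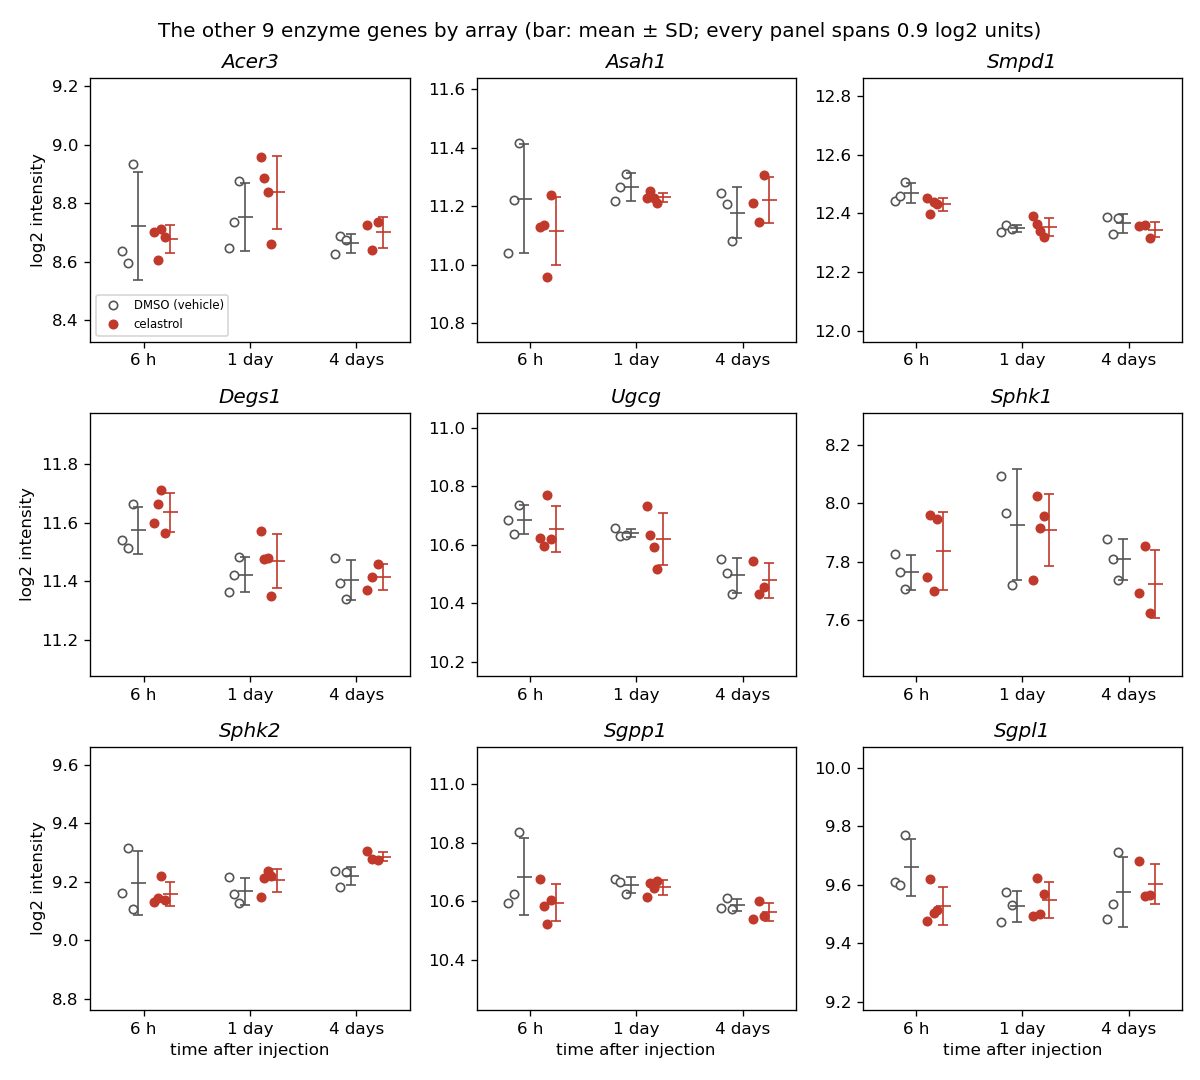
Log2 intensity of the other 9 enzymes in each of the 20 arrays (points) with group means and SD, by time, for DMSO and celastrol. Smpd1, Degs1 and Ugcg lie lower at 4 days than at 6 h in both arms (for Degs1, 11.34 to 11.48 against 11.51 to 11.66 with DMSO), while DMSO and celastrol overlap at each time, except for Sphk2 at 4 days.

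Whether the celastrol difference itself changed with time was read for all 10 members. limma called 0 of 10 for 1 day minus 6 h (0.00708% of all genes called), 0 for 4 days minus 6 h (0.0142%) and 0 for 4 days minus 1 day (0.00708%). The unadjusted p was under 0.05 for 1, 1 and 0 members, against 10.3%, 7.68% and 2.47% of all genes, and that member was Acer2. The contrasts that singled Acer2 out are part of these differences, so nothing is read from its count.

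The wider pathway was read from 68 other sphingolipid genes, a list that covers synthesis, ceramide synthases, sphingomyelin, glycolipids, myelin galactolipids, breakdown, transport and receptors. Of these, 61 were tested, 4 were too dim (Sptlc3, Cers3, Acer1 and Apom) and 3 were not analysed here. limma called 0 of 61 at 6 h, at 1 day and at 4 days, and the unadjusted p was under 0.05 for 4, 5 and 7 of them. Over all genes 0%, 0.425% and 0.0637% were called, and 7.55%, 8.19% and 6.53% had an unadjusted p under 0.05. At 6 h 42 of the 61 were lower with celastrol, at 1 day 31 and at 4 days 30, beside 58.3%, 46.2% and 45.6% of all genes. Their median differences were -0.037, -0.00088 and 0.0045, beside -0.015, 0.0063 and 0.0075 over all genes tested.

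At 6 h the smallest p among them belonged to Samd8, a ceramide phosphoethanolamine synthase, which read 10.27, 10.29 and 10.28 with DMSO and 10.14, 10.18, 10.20 and 10.14 with celastrol. The groups did not overlap, and the difference was -0.12 ± 0.037 (SE; limma, adjusted p = 0.582). St3gal5, which makes the ganglioside GM3, differed by -0.13 ± 0.044 (adjusted p = 0.582), the serine palmitoyltransferase subunit Sptssb by -0.19 ± 0.079 (0.647) and the ceramide synthase Cers6 by -0.12 ± 0.054 (0.651).

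At 1 day Plpp1, a lipid phosphate phosphatase, read 9.57, 9.59 and 9.71 with DMSO and 9.81, 9.82, 9.77 and 9.73 with celastrol. The groups did not overlap, and the difference was 0.16 ± 0.054 (SE; limma, adjusted p = 0.359). Plpp1 rose between 6 h and 1 day within the celastrol arm, by 0.30 ± 0.050 (SE; limma, adjusted p = 0.0199), the 1 gene of the list called there. The second desaturase Degs2 differed by -0.25 ± 0.093 (adjusted p = 0.431) at 1 day and the receptor S1pr3 by -0.15 ± 0.057 (0.450).

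Ugt8a, which adds galactose to ceramide for myelin, was among the 4 smallest p both at 1 day and at 4 days. It read 10.43, 10.42 and 10.53 with DMSO at 1 day and 10.16, 10.33, 10.33 and 10.11 with celastrol, a difference of -0.23 ± 0.088 (SE; limma, adjusted p = 0.447). At 4 days it read 10.62, 10.44 and 10.45 against 10.43, 10.14 and 10.01, a difference of -0.31 ± 0.094 (adjusted p = 0.456). Celastrol arrays lay below all DMSO arrays at both times, as did the mean of the oligodendrocyte markers given above, whose part in this was not tested. At 6 h the DMSO arrays of Ugt8a read 10.20, 9.95 and 10.25, below all later DMSO arrays. The celastrol means of Ugt8a were 10.14 at 6 h, 10.23 at 1 day and 10.19 at 4 days.

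The sphingosine-1-phosphate receptor of oligodendrocytes, S1pr5, read 9.81, 9.74 and 9.77 with DMSO at 4 days and 9.60, 9.48 and 9.57 with celastrol, a difference of -0.22 ± 0.065 (SE; limma, adjusted p = 0.421). Ormdl2, an inhibitor of serine palmitoyltransferase, differed by -0.20 ± 0.059 (adjusted p = 0.430), and the second sphingosine-1-phosphate phosphatase Sgpp2 by -0.17 ± 0.057 (0.544). None of these passed the threshold.

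**Figure D4:**
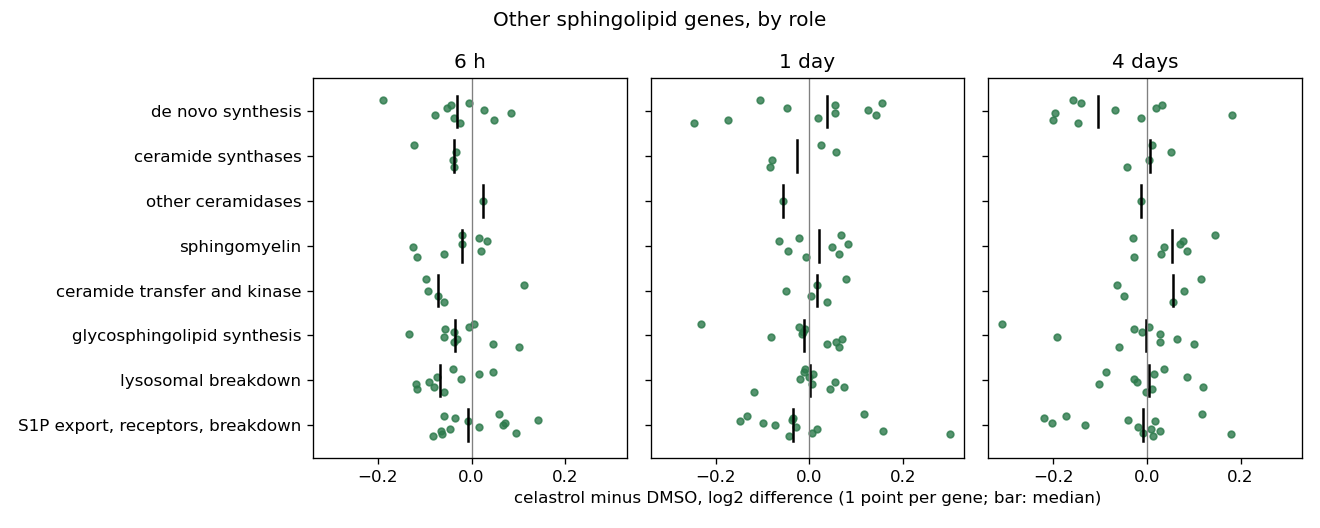
Log2 difference of celastrol minus DMSO for each of the 61 other sphingolipid genes tested (points), by functional group, at 6 h, 1 day and 4 days. No gene passed the adjusted threshold, and Ugt8a, at -0.31 at 4 days, is among the lowest.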

How the data were processed

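RNA of 20 hypothalamus samples was measured on Affymetrix Mouse Gene 1.0 ST arrays. The authors deposited log2 values for 23492 probe sets, made with RMA per the submitters' processing notes; its version is not given in the sources used here. Platform annotation gave 1 symbol to 20228 probe sets, several to 1399 and none to 1865, and 20182 of the first matched the GRCm38.p6 gene table. The brightest probe set stood for a gene, and genes under the 25th percentile of mean intensity (7.04) were left out, leaving 14129. limma 3.58.1 (R 4.3.3) fitted 6 group means, with 14 residual degrees of freedom, and p-values were adjusted over all genes (Benjamini-Hochberg, threshold 0.05). The second Acer2 probe set was tested in a fit of 15415 single-symbol probe sets. The fit was also run on simulated data in which genes varied independently. The residuals of these arrays share a leading component, so that run cannot give the error rate here. p-values measure the spread between arrays only, and the number of arrays limits the precision.

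The members and lists were chosen with earlier results of these data known. Other sphingolipid genes were named if called, or else as the 4 with the smallest p at a time. The alternatives were other filters, the mean of probe sets, other scalings, array weights, a trended and robust prior, the replicate number as a block, only the groups compared, and leaving out each array. Replicate numbers did not pair the arrays: of 9 same-number pairs, 1 had a correlation of deviations over 0.1 (range -0.288 to 0.287).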

Additional observations from a re-analysis of the deposited data

Results flagged for a closer look

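For 2 of the enzymes, 1 array of a group of 4 lay far from the rest, measured by its gap to the nearest array divided by the range of the group. With celastrol at 6 h, Sphk2 read 9.22 in replicate 3 and 9.13 to 9.14 in the other 3 arrays, a ratio of 0.839. In the same group Ugcg read 10.77 in replicate 3 and 10.60 to 10.63 in the others, a ratio of 0.836. Of 22 such groups checked 2 were marked, and chance marks about 1 in 20. The same array also held the highest Acer2 level of its group, 9.52, and without it the celastrol difference of Acer2 at 1 day exceeded that at 6 h by 0.86.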

How the results depend on the processing

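The Acer2 difference at 1 day was 0.83 to 0.91 when 1 array was left out and 0.37 with the mean of its probe sets. At 4 days it was 0.36 with that mean. These values describe the contrasts that singled Acer2 out. At 4 days the number of members called, 1 in the report, was 0 with that mean, with no filter, with centred arrays, with repeated quantile normalization, with a trended and robust prior, with only the 2 groups compared, with the replicate block and without both arrays that lay apart. Leaving out 1 array gave 0 to 1 there, and Acer2 missed the threshold in 13 of those 20 fits. Over all 20 its difference was 0.59 to 0.81. It passed without any 1 of the DMSO 6 h arrays, DMSO 1 day replicate 3, celastrol 6 h replicate 3 or 4, or celastrol 4 days replicate 1. With the replicate block its differences were 0.20, 0.85 and 0.68, and no other call of a member changed.

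Members called among differences between times were 0 to 1 when 1 array was left out (Acer2 without celastrol 6 h replicate 3). Between DMSO times they were also 0 to 1 (Acer2 without celastrol 6 h replicate 3 or 4 days replicate 1), and 1 with the 50th percentile filter (Acer2 at 4 days minus 6 h). Between celastrol times they were 0 to 1 when 1 array was left out (Degs1 without DMSO 6 h replicate 3, DMSO 1 day replicate 3, celastrol 6 h replicate 4 or 1 day replicate 4), 1 with the 50th percentile filter, repeated quantile normalization, a trended and robust prior or without both arrays that lay apart, and 2 with array weights (Degs1 and Ugcg). Among the other sphingolipid genes 1 was called with only the 2 groups compared, Mfsd2a at 1 day (limma, adjusted p = 0.0223). It was higher with celastrol by 0.30, at 11.60 to 11.70 against 11.32 to 11.37 with DMSO. In the fit of all groups its adjusted p in limma was 0.641. That fit also holds DMSO at 6 h and celastrol at 4 days, where the SD of Mfsd2a was 0.35 and 0.47. The share of all genes called is not given for these settings, so nothing about the enzymes is read from these counts. The causes were not tested. Of 27 celastrol differences of the other 9 enzymes, 12 changed sign under at least 1 setting, and 0 were called under any. Sphk1 was too dim for the 50th percentile filter.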
